A study of Mus musculus with 6 samples.

Results

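The 42 genes described here encode parts of the axoneme, the microtubule core of the motile cilium. They are 5 outer arm and 9 inner arm dynein heavy chain genes, 10 genes of the central apparatus, 12 of the radial spokes, rulers, tethers, docking sites and doublet interior, and 6 others that include adenylate kinases. Names in Cfap stand for cilia and flagella associated proteins. They were chosen by symbol among the 32285 genes of the count tables, and all 42 were found. They lie on 17 chromosomes of the mouse, and each was matched to GENCODE M21.

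Motile cilia beat because dynein motors on the outer microtubule doublets pull on their neighbors. Inner dynein arms shape the bend, outer arms supply most of the force, and the central apparatus and radial spokes regulate both. In the brain these cilia are carried by the multiciliated ependymal cells that line the ventricles, where they move cerebrospinal fluid. Choroid plexus epithelium makes that fluid and bears cilia of its own, while astrocytes are known for a primary cilium that lacks the motile apparatus.

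The data were single-nucleus RNA counts from 6 mouse brains, 3 injected with lysophosphatidic acid (LPA), a bioactive lipid that causes hydrocephalus in this model, and 3 injected with vehicle. C57BL/6 S-56 pups received 5 µl in the ventricle at postnatal day 7, and brains were collected at postnatal day 15. Nuclei from frozen tissue without olfactory bulbs and cerebellum were sorted as NeuN-negative to leave out neurons, and each library is labelled as a replicate brain. Nothing in the labels ties brains to litters, so p-values measure the spread between these libraries. All 6 libraries share this sort, so every level below is one of nuclear RNA, and nothing in the counts separates nuclei by distance from the ventricle.

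The libraries held 8639 to 12894 barcodes and 48852970 to 65688644 unique molecular identifiers (UMIs, counted RNA molecules). By their Xist and Y-linked counts, LPA libraries 2 and 3 and vehicle library 2 were female and the others male. Sex was thus not balanced between the groups. No pair of libraries shared more than 0.4% of its barcodes, and Scrublet called 12.9% to 15.7% of the nuclei kept as doublets. From clusters made without the 42 genes, 862 nuclei were named multiciliated ependymal cells, 100 cells forming cilia, 749 choroid plexus, 10413 astrocytes and 13097 oligodendrocyte lineage, the last a class not known for motile cilia. Of the choroid plexus nuclei, 29 formed a sub-cluster led by Tmem132c and Eln. It had 48.3% Scrublet calls and no choroid plexus marker among its leading genes. The names were given from marker lists, so finding those markers in a class describes it and does not check its name. All 12 ependymal markers and all 12 choroid plexus markers were detected in their own class in each of the 6 libraries. The 10 markers of cells forming cilia were all detected in the LPA libraries, whereas Gmnc had no UMI in the vehicle libraries and Ccno none in 2 of them.

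The filter on mitochondrial reads bore unequally on the ependymal class. With it the class was smaller by 2.34%, 9.49% and 16.0% in LPA libraries and by 34.0%, 47.6% and 45.9% in vehicle libraries. Nuclei were clustered anew without the filter, so these values also hold changes of class. The nuclei kept were 167, 143 and 184 in LPA libraries and 173, 77 and 118 in vehicle libraries. As a share of all nuclei kept, ependymal cells made up 1.89% ± 0.367 with LPA and 1.32% ± 0.855 with vehicle (SD, n = 3 each, two-sided exact permutation test, p = 0.400, smallest possible p 0.1).

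Levels are given as counts per 1e6 UMIs of the class in a library (CPM). Summed over the 42 genes, the level in ependymal cells was 44378, 41161 and 44500 CPM with LPA and 41098, 40085 and 39908 CPM with vehicle. The choroid plexus held 6829, 6407 and 6148 CPM with LPA and 6571, 6137 and 6240 CPM with vehicle. In astrocytes the sum was 861, 868 and 807 CPM with LPA against 520, 436 and 526 CPM with vehicle. LPA libraries thus lay above all vehicle libraries in ependymal cells and in astrocytes, by a small margin in the former, while the groups overlapped in the choroid plexus. The oligodendrocyte lineage stood at 301, 307 and 302 CPM with LPA and 299, 243 and 265 CPM with vehicle. In immune nuclei the sum was 476, 393 and 630 CPM with LPA and 337, 244 and 280 CPM with vehicle, without overlap. Those vehicle sums rest on 56, 119 and 35 UMIs. Neurons held 577, 598 and 614 CPM with LPA and 605, 558 and 562 CPM with vehicle. Vascular nuclei held 386, 398 and 399 CPM and 473, 357 and 362 CPM. Immune, neuronal and vascular nuclei were not tested.

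**Figure D1:**
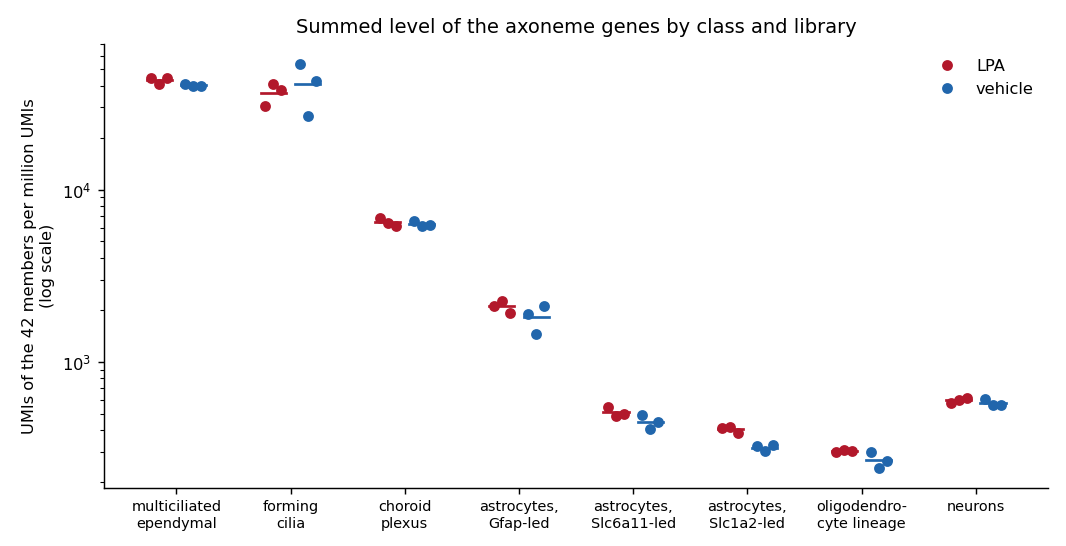
Summed CPM of the 42 axoneme genes (vertical axis, log scale) in each class, with 1 point per library in red for LPA and blue for vehicle and a line at the mean of 3 libraries. Ependymal cells and cells forming cilia stand highest, and the cluster of astrocytes led by Gfap lies above the other astrocyte clusters, all of which lie near the neurons and the oligodendrocyte lineage.

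At an equal depth of 2000 UMIs a nucleus, ependymal nuclei carried UMIs of 29 members at the median in 5 of the libraries and of 30 in LPA library 1. The median was 8 in the choroid plexus in 5 of the libraries, and 0 in the oligodendrocyte lineage in all 6. Over the 42 genes, the median member was detected in 82.5% of ependymal nuclei with LPA and 81.7% with vehicle. The same figure was 10.9% and 11% in the choroid plexus, 2.46% and 1.10% in astrocytes, and 0.974% and 0.771% in the oligodendrocyte lineage.

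Many members are long genes, and 20 of the 42 overlap a gene on the opposite strand. The paper names default Cell Ranger settings apart from the reference and does not state whether strand was used. Reads of such pairs may thus not be told apart. On the same strand, 3 members overlap another gene, and strand cannot separate their reads there. These are Cfap43 (with Itprip), Cfap299 (with Gm11111) and Drc1 (with Gm43755). Dnah7a, Dnah7b and Dnah7c on chromosome 1 are near-identical inner arm genes that can share reads, and their separate values are uncertain. Levels are compared below within a gene and not between genes, because the counts carry no correction for length.

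To ask whether the axoneme program of mature ependymal cells differed between treatments, UMIs were summed per library and tested with edgeR's quasi-likelihood test across all genes, and a gene was called where its adjusted p was below 0.05 and its log2 value 0.25 or more from 0. Of the 42 members, 40 passed the filter on low counts. Ccdc39, Dnah10 and Dnah3 rose with LPA, and none fell. Across all 8179 genes tested in this class 1.08% were called higher and 0.782% lower. The median log2 fold-change of the 40 was 0.07, beside −0.00 over all genes, and 29 of the 40 values were above 0. At an unadjusted p under 0.05 there were 11 members, beside 928 of the 8179 genes, and DESeq2 also called 3 members.

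Ccdc39 encodes, with Ccdc40, the molecular ruler that sets the spacing of inner dynein arms and radial spokes along the doublet. It stood at 921, 746 and 850 CPM with LPA and 531, 570 and 554 CPM with vehicle, without overlap. On the log2 scale LPA lay 0.61 above vehicle (standard error 0.119, adjusted p = 0.00127, edgeR's quasi-likelihood test), and it was called in 6 of 6 fits that left out 1 library. Its partner Ccdc40 stood at 211, 217 and 211 CPM against 206, 166 and 162 CPM, which did not overlap, but the log2 difference of 0.22 (standard error 0.152) did not pass.

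Dnah10 and Dnah3 encode inner arm heavy chains. Dnah10 lay at 889, 855 and 1088 CPM with LPA and 697, 646 and 617 CPM with vehicle (log2 fold-change 0.52, standard error 0.116, adjusted p = 0.00748 from edgeR). Dnah3 lay at 1328, 1078 and 1177 CPM and 956, 782 and 966 CPM (0.40, standard error 0.112, adjusted p = 0.0449 from edgeR). Neither gene overlapped between the groups. Dnah10 was called in 4 of 6 fits with 1 library left out, missing without LPA replicate 3 and without vehicle replicate 3, and Dnah3 in 1 of 6, the one without LPA replicate 2.

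Finer clustering, again without the 42 genes, set apart 121 ependymal nuclei led by Ptpn20 and Abca8a, of which 40, 30 and 48 came from the LPA libraries and 3, 0 and 0 from the vehicle libraries. Dnah10, Dnah3 and Wdr49 were among its leading genes, so that leaving it out lowers these genes in the LPA libraries by construction and is no test of their calls. Without it, no member was called by edgeR among 40 tested, where 0.573% of the 6978 genes tested were called higher. At an unadjusted p under 0.05 there were 2 members, beside 631 of the 6978 genes. The median log2 fold-change of the members was then −0.01. Ccdc39 then stood at 784, 646 and 650 CPM with LPA and 537, 570 and 554 CPM with vehicle, still without overlap (0.33, adjusted p = 0.350 from edgeR). Dnah10 then stood at 662, 728 and 747 CPM against 704, 646 and 617 CPM, and Dnah3 at 1115, 956 and 996 CPM against 958, 782 and 966 CPM, both with overlapping groups. This setting was chosen after the data had been seen.

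**Figure D2:**
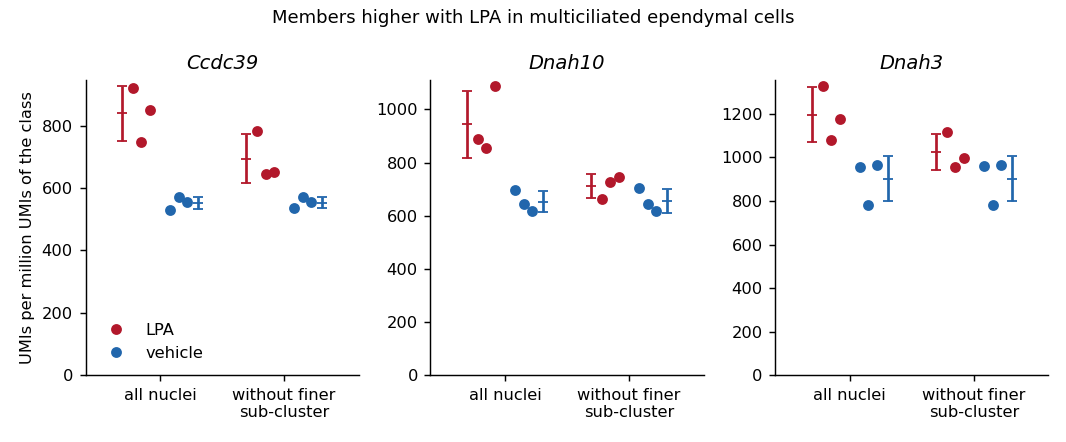
Level of Ccdc39, Dnah10 and Dnah3 in multiciliated ependymal cells (vertical axis, CPM, from 0), with 1 point per library and bars at the mean ± SD of 3 libraries, for all nuclei and without the finer sub-cluster. With all nuclei the LPA points (red) lie above the vehicle points (blue), and without the sub-cluster only those of Ccdc39 still do.

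The other ependymal members are described by role. Among outer arm heavy chains, which carry the main motor force, Dnah9 stood at 1429, 1391 and 1498 CPM with LPA and 1395, 1395 and 1252 CPM with vehicle, and the log2 differences of Dnah5, Dnah9 and Dnah11 were 0.02 to 0.16. Dnah8 and Dnah17, outer arm chains best known from sperm, held 7 and 8 UMIs over all 862 nuclei and could not be tested. The other 7 inner arm chains ran from −0.03 (Dnah7a) to 0.18 (Dnah1). Dnah12, an inner arm chain, was detected in 99.1% of nuclei of both groups at 2000 UMIs.

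Among the 10 genes of the central apparatus, the pair of microtubules and projections at the cilium's center, the differences ran from −0.14 (Cfap221) to 0.34 (Spag16), with none called. Hydin, whose loss causes hydrocephalus in mice, stood at 1567, 1387 and 1455 CPM with LPA and 1583, 1403 and 1414 CPM with vehicle. Cfap54 lay at 2164, 2063 and 2261 CPM against 2041, 1939 and 2038 CPM, which did not overlap although the log2 difference was 0.11 (adjusted p = 0.746 from edgeR).

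Cfap44, which tethers an inner dynein to the doublet, stood at 2043, 2120 and 2108 CPM with LPA and 1787, 1752 and 1819 CPM with vehicle, again without overlap and without a call (0.22, adjusted p = 0.311 from edgeR). The spoke head genes Rsph1, Rsph4a and Rsph9 differed by −0.17, −0.10 and −0.00 on the log2 scale. Of the 6 remaining genes, Tmem212 was lower in all LPA libraries, at 1208, 1015 and 1216 CPM against 1395, 1259 and 1460 CPM (−0.26, adjusted p = 0.282 from edgeR), and Cfap299 lay at 2810, 2350 and 2474 CPM against 2995, 3147 and 2779 CPM (−0.22). Neither passed the test.

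Foxj1, the transcription factor that switches on motile cilia genes, stood at 138, 117 and 155 CPM with LPA and 189, 128 and 130 CPM with vehicle, a log2 difference of −0.18 (adjusted p = 0.780 from edgeR). Deup1, which builds the structures that multiply centrioles, stood at 66.2, 39.1 and 91.8 CPM against 38.6, 42.5 and 35.3 CPM (0.80, adjusted p = 0.188 from edgeR). The glial filament gene Gfap lay at 30.2, 41.2 and 49.1 CPM against 18.4, 8.50 and 17.6 CPM in the same nuclei (1.31, adjusted p = 0.0605 from edgeR). The groups overlapped in the first 2 and not in Gfap.

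Cells forming cilia were nearly confined to LPA libraries, with 25, 30 and 38 nuclei there and 2, 2 and 3 in vehicle libraries, or 0.353% ± 0.0763 and 0.0230% ± 0.00511 of all nuclei (SD, n = 3 each, two-sided exact permutation test, p = 0.100, the smallest this design allows). No treatment comparison of levels was made in them, and the values below set the forming cells of the LPA libraries beside the mature ependymal cells of the same libraries, as a description. Mcidas, a coregulator that starts the multiciliated program and a marker used to name these cells, stood at 446 CPM in forming and 0.559 CPM in mature cells.

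Nuclei named as forming cilia carried the axoneme transcripts. They were sought only within the clusters named ependymal or choroid plexus, so these levels describe the nuclei found there. Their summed level was 30455, 40955 and 38078 CPM in the LPA libraries, and at 2000 UMIs the median nucleus held UMIs of 23, 28 and 27.5 members. Over the 40 members with at least 100 UMIs in mature cells, the median ratio of forming to mature level was 0.817. Of these 40, 20 were lower in forming cells in all 3 libraries and 5 higher in all 3.

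Dnah8 stood apart from the rest. It had 26, 40 and 66 UMIs in the forming cells of the 3 LPA libraries, or 252, 303 and 354 CPM. In mature cells it had 6 UMIs in all 3 together. The pooled levels were 313 CPM (95% exact Poisson interval 262 to 371) and 3.36 CPM (1.23 to 7.31), intervals that cover counting error alone. The 7 forming nuclei of the vehicle libraries held 9 UMIs of it, 517 CPM with an interval of 236 to 982. Dnah8 was among the genes that led this cluster, although it was not used to make it. The gene overlaps 4 genes on the opposite strand, among them Glo1.

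The 5 members higher in forming cells in every LPA library were Ccdc39, Cfap47, Rsph1, Spag16 and Dnah2. Ccdc39, the ruler gene, stood at 1415, 1790 and 1543 CPM there, 1.87 times its mature level. Cfap47 of the central apparatus stood at 1211, 888 and 1093 CPM (1.77 times), and Rsph1 of the spoke head at 184, 311 and 246 CPM (1.64 times). Members low in forming cells were Tmem212, at 0.225 of the mature level, Armc4, a docking gene of the outer arms, at 0.301, Rsph4a, a spoke head gene, at 0.389, and Dnah11, an outer arm chain, at 0.440. All 4 were lower in each of the 3 libraries.

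**Figure D3:**
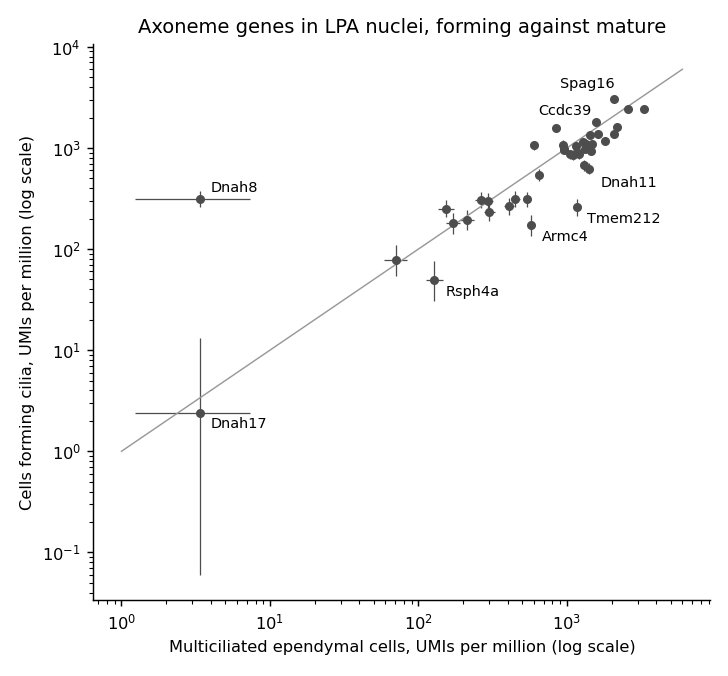
Level of each axoneme gene in cells forming cilia (vertical axis) against multiciliated ependymal cells (horizontal axis), both as CPM pooled over the 3 LPA libraries on log scales, with bars for 95% exact Poisson intervals and a line of equal levels. Dnah8 lies far above the line at 313 against 3.36, while Tmem212, Armc4, Rsph4a and Dnah11 lie below it.

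In the choroid plexus, 29 of the 42 members passed the filter and none was called by edgeR, with 1 (Dnah2) at an unadjusted p under 0.05 and none called by DESeq2. Across the 7956 genes tested 0.0503% were called higher and 0.0628% lower, so few genes of any kind passed in this class. Of the 7956, 449 had an unadjusted p under 0.05. The median log2 fold-change of the 29 was 0.03, with 15 above 0. Dnah2, an inner arm chain, lay at 142, 155 and 153 CPM with LPA and 123, 116 and 102 CPM with vehicle (0.41, standard error 0.159, adjusted p = 0.748 from edgeR).

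The choroid plexus did not carry the axoneme genes in the proportions of ependymal cells. Over the 40 members with at least 100 ependymal UMIs, the choroid plexus level in LPA libraries was 12.3% of the ependymal level at the median, from 0.468% (Tmem212) to 60.5% (Spag16). In vehicle libraries the median was 12.9%, from 0.669% (Dnah5) to 76.2% (Spag16). Both groups had the same member at the top. These shares were not tested.

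Members of the same role could differ widely. Of the outer arm chains, Dnah9 stood at 365, 312 and 287 CPM with LPA and 351, 274 and 299 CPM with vehicle, 22.1% and 23.2% of its ependymal level. Dnah5, the partner of such chains in the outer arm, stood at 13, 6.04 and 1.89 CPM and 7.15, 6.29 and 6.35 CPM, 0.607% and 0.669%. Dnah11 lay at 19.2% and 16.2%. At 2000 UMIs, Dnah9 was detected in 47.0% ± 3.32 of choroid plexus nuclei with LPA and Dnah5 in 1.13% ± 1.01 (SD, n = 3), while in ependymal nuclei the figures were 90.8% ± 3.99 and 84.4% ± 2.10. With vehicle, Dnah5 was detected in 1.18% ± 0.429 of choroid plexus nuclei. In the oligodendrocyte lineage, a class not known for motile cilia, the share was 2.66% ± 0.391 with LPA and 1.10% ± 0.335 with vehicle, so the choroid plexus share lay below it with LPA and close to it with vehicle.

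Inner arm chains were split in the same way. Dnah6 was at 17.9% of its ependymal level with LPA and 21% with vehicle, and Dnah2 at 16.1% and 13.5%. Dnah12 was at 0.799% and 0.993%, Dnah10 at 0.508% and 1.00% and Dnah3 at 0.649% and 1.93%. The paralogs Dnah7b, Dnah7c and Dnah7a stood at 50.8%, 11.8% and 0.676% with LPA, subject to the reads they may share.

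Of the central apparatus, Spag16 stood at 1163, 1216 and 1374 CPM with LPA and 1254, 1227 and 1203 CPM with vehicle. Cfap47 was at 52.2% and 51.6% of its ependymal level and Cfap69 at 30.2% and 36.8%, but Spag17 was at 1.83% and 1.5% and Cfap46 at 0.985% and 2.27%. Spag16 and Spag17, which both encode proteins of the central apparatus, were thus far apart.

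Among the spoke, ruler and tubule genes, Tekt1, a tektin of the doublet wall, was at 43.0% with LPA and 58.1% with vehicle. Rsph9 was at 40.3% and 37.8%, and Ccdc39 at 37.0% and 63.0%, whereas Ccdc40 was at 3.69% and 4.4%. Of the remaining genes Tmem212 and Wdr49 were under 1% with LPA, and Ak9, an adenylate kinase, was at 12% and 14.3%.

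The difference of the LPA effect between choroid plexus and ependymal cells was tested as an interaction with the library as a block. Of 40 members tested, Ccdc39 alone was called, lower in the choroid plexus by 0.75 on the log2 scale (standard error 0.171, adjusted p = 0.01, edgeR's quasi-likelihood test), where 0.176% of all 10224 genes were called lower. In the choroid plexus Ccdc39 stood at 341, 317 and 291 CPM with LPA and 372, 308 and 335 CPM with vehicle. The call was lost without LPA replicate 3, without vehicle replicate 1 and without vehicle replicate 3, and DESeq2 called no member.

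In astrocytes, 40 of the 42 members passed the filter, 26 rose with LPA and none fell. Across the 14657 genes tested 4.92% were called higher and 2.93% lower. The 40 log2 fold-changes ran from 0.21 (Rsph9) to 1.62 (Cfap44), all above 0, with a median of 0.76 beside −0.01 over all genes. At an unadjusted p under 0.05 there were 32, beside 3076 of the 14657 genes, and DESeq2 called 21 members. Leaving out 1 library gave 19 to 25. Absolute levels remained low. The summed level of 861, 868 and 807 CPM in LPA libraries stands beside 41161 to 44500 CPM in ependymal cells of the same libraries.

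The rise took in every role. Of the tested members, 3 of 4 outer arm chains rose, 5 of 9 inner arm chains, 8 of 10 central apparatus genes, 5 of 11 spoke, ruler, tether and tubule genes, and 5 of the 6 others. Dnah8 and Rsph4a were the members that could not be tested.

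Cfap44, the tether gene, stood at 60.9, 62.7 and 55.7 CPM with LPA and 19.7, 16.0 and 23.9 CPM with vehicle. It had the lowest adjusted p of the members (log2 fold-change 1.62, standard error 0.117, adjusted p = 1.93e-07, edgeR's quasi-likelihood test). At 2000 UMIs it was detected in 9.45% ± 0.486 of astrocyte nuclei with LPA and 3.01% ± 0.238 with vehicle (SD, n = 3 each), beside 1.27% ± 0.102 and 0.690% ± 0.198 in the oligodendrocyte lineage.

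Of the outer arm chains, Dnah9 stood at 38.2, 38.1 and 35.8 CPM with LPA and 12.8, 11.4 and 14.6 CPM with vehicle (1.55, adjusted p = 3.13e-07 from edgeR). Dnah5 stood at 22.7, 21 and 21.3 CPM and 9.42, 8.48 and 9.32 CPM (1.28, adjusted p = 1.33e-05 from edgeR). For both the LPA libraries lay close together and well above every vehicle library. Set beside the choroid plexus values, those of astrocytes were higher for Dnah5 and lower for Dnah9, which was not tested.

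Cfap54 of the central apparatus lay at 53.9, 55.2 and 50 CPM against 26.3, 19.7 and 27.8 CPM (1.15, adjusted p = 5.44e-06 from edgeR). Drc1, a base subunit of the nexin-dynein regulatory complex that links neighboring doublets, lay at 37.3, 35.7 and 39.2 CPM against 13.4, 14.2 and 18.8 CPM (1.27, adjusted p = 6.51e-06 from edgeR). Ak9, an adenylate kinase that balances adenine nucleotides, lay at 21.9, 22.8 and 24.8 CPM against 8.56, 9.14 and 8.51 CPM (1.41, adjusted p = 5.73e-06 from edgeR). None of the 3 overlapped between groups.

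The next members by adjusted p were Rgs22, Cfap299, Ak7 and Wdr49, whose log2 fold-changes were 0.84, 1.07, 1.47 and 1.31. Ak7, a second adenylate kinase of motile cilia, stood at 14.3, 16.6 and 10.1 CPM with LPA and 5.14, 4.08 and 6.08 CPM with vehicle. The other 16 called members had values from 0.44 (Dnah7b) to 1.39 (Cfap52) and adjusted p from 4.70e-04 (Dnah6) to 0.0477 (Hydin) with edgeR. Of these, Tekt1 was called in none of the 6 fits that left out 1 library, Dnah7a in 1, Hydin and Dnah11 in 2 each and Cfap52 in 3.

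The 14 tested members that did not pass had values from 0.21 to 1.07. They included the 3 with an ependymal call. Ccdc39 stood at 64.7, 68.8 and 64.6 CPM with LPA and 57.7, 49.3 and 60.2 CPM with vehicle (0.27, adjusted p = 0.0638 from edgeR). Dnah10 lay at 6.66, 7.34 and 5.50 CPM against 5.99, 2.77 and 4.26 CPM, and Dnah3 at 1.43, 4.02 and 2.66 CPM against 3.43, 1.63 and 2.43 CPM, with overlapping groups in both.

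**Figure D4:**
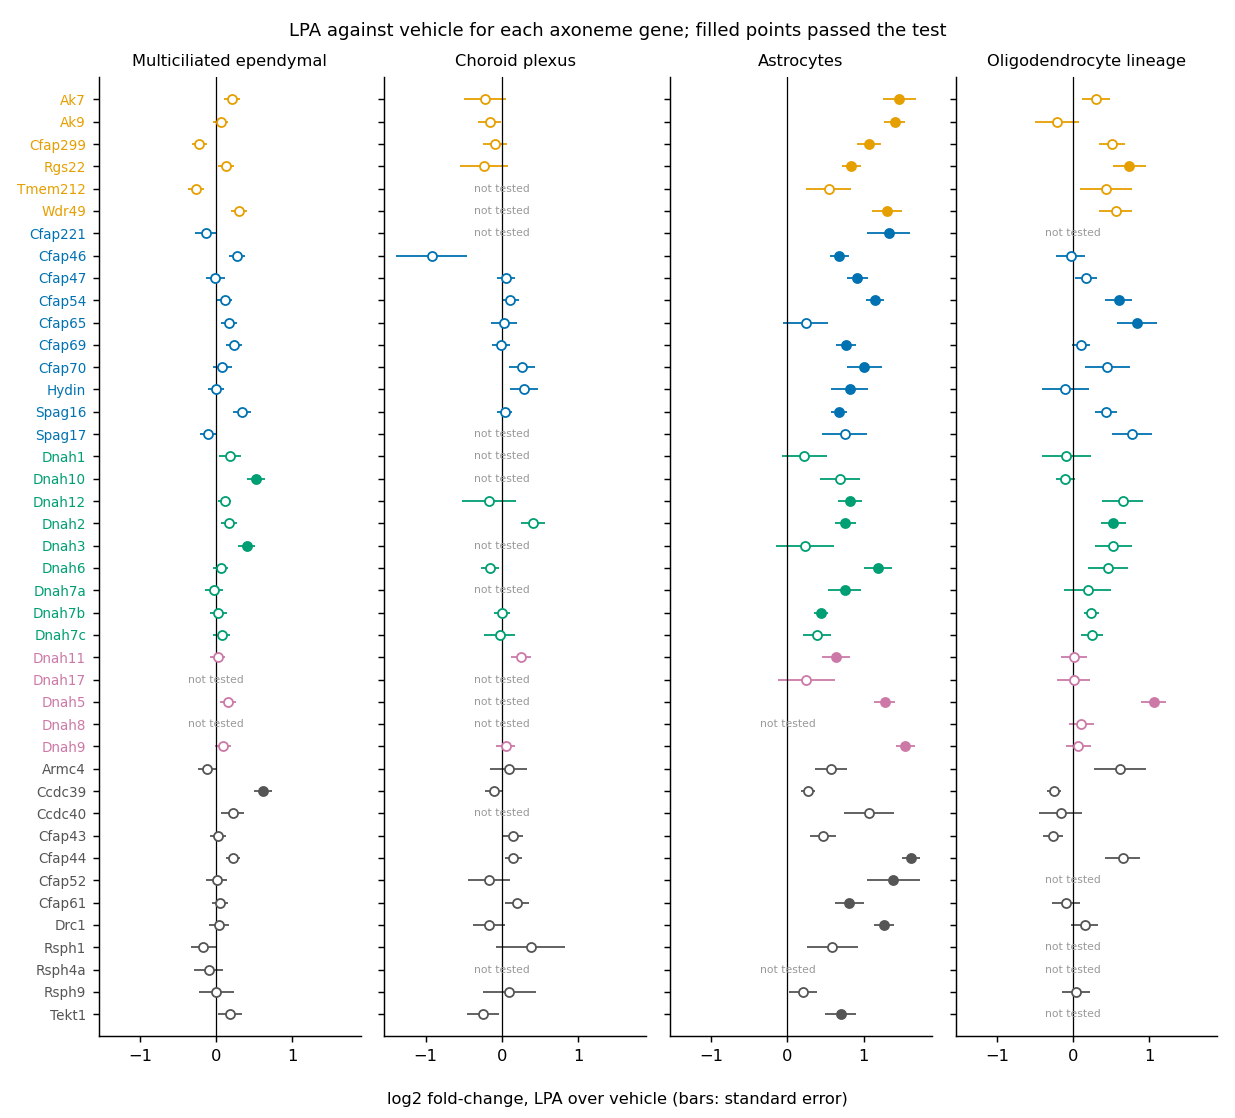
Log2 fold-change of LPA over vehicle (horizontal axis) for each axoneme gene in 4 classes, with bars for the standard error of edgeR's fit over 3 against 3 libraries and colors for the role of the gene. Filled points passed the test. In astrocytes 26 of 40 are filled and all lie right of 0, in ependymal cells 3 of 40, in the choroid plexus none of 29 and in the oligodendrocyte lineage 5 of 37.

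RFX factors, which act with Foxj1 on cilia genes, bind a motif called the X-box. The core searched was CNNGGNAAC on either strand, in RefSeq windows from 250 bases before to 50 bases after a gene's start. A window was found for 34 of the 42 members, and 11 of these (32.4%) held a match, beside 5073 of 27025 genes (18.8%). The forkhead motif TGTTTAC, in either orientation, was found in 4 of 34 members (11.8%) and 1095 of 27025 genes (4.05%). Below are 120 bases up to the start site for some of the genes with an X-box match. They are Dnah10, called in ependymal cells, and Dnah9, Dnah5, Drc1 and Ak9, which rose together in astrocytes. The windows of Ccdc39, also called in ependymal cells, and of Cfap44, lowest in adjusted p in astrocytes, held no X-box match. Whether a match goes with the LPA response was not tested. The stretches run 5′ to 3′ on the gene's strand in build GRCm38.p6, with X-box matches in capitals. The stretches are chr5:124724965-124725084 (plus strand) for Dnah10, chr11:66168570-66168689 (minus strand) for Dnah9, chr15:28203642-28203761 (plus strand) for Dnah5, chr5:30281273-30281392 (plus strand) for Drc1 and chr10:41303814-41303933 (plus strand) for Ak9.
Dnah10: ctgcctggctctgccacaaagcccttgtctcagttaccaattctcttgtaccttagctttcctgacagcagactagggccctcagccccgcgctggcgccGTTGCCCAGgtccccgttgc
Dnah9: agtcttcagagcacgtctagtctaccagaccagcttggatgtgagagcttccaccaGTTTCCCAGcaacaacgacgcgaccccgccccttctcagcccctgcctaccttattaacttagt
Dnah5: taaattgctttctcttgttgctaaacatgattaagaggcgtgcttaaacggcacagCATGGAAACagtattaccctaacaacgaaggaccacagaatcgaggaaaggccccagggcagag
Drc1: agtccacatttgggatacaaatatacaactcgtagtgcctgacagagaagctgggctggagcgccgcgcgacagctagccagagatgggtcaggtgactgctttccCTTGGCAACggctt
Ak9: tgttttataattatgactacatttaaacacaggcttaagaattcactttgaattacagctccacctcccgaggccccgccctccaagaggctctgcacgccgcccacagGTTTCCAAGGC
The first base of the match lay 20 bases before the start in Dnah10, 82 in Dnah9, 68 in Dnah5, 14 in Drc1 and 11 in Ak9, where a second match overlaps the first and runs past the stretch shown. A match describes these letters and not the binding of a factor.

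Whether the LPA effect itself differed between astrocytes and ependymal cells was tested as an interaction. It was higher in astrocytes for 20 of 40 members, with 38 of the 40 values above 0 and a median of 0.75 beside 0.03 over all genes, where 1.22% of the 14489 genes tested were called in this direction. The difference was 1.38 for Cfap44 (standard error 0.148, adjusted p = 8.44e-17), 1.44 for Dnah9 (0.163, 3.49e-15) and 1.35 for Ak9 (0.181, 1.42e-10), all from edgeR's quasi-likelihood test. Both class sums come from the same 6 libraries, so values this small do not stand for more brains. The simulated counts for this test had a fixed spread, so its p-values were not checked at the spread of these libraries. Of the 20, 12 were called in 6 of 6 fits that left out 1 library. DESeq2 called 13.

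The astrocyte values moved with the makeup of the class. Clustering gave 3 groups, of which the one led by Gfap and C4b held 24.3%, 24.8% and 26.7% of astrocyte nuclei with LPA and 11.8%, 12.5% and 12.4% with vehicle. This cluster held 3214 of 5431, 3825 of 6268 and 2827 of 4549 axoneme UMIs of the astrocytes in LPA libraries and 611 of 1821, 803 of 2673 and 943 of 2594 in vehicle libraries. Its own summed level was 2121, 2240 and 1923 CPM with LPA and 1906, 1446 and 2099 CPM with vehicle, which overlapped. Its vehicle nuclei were shallower, with median UMIs of 1823 to 2242 against 3024 to 3284 with LPA, so that 80 of 230 to 90 of 132 nuclei reached 2000 UMIs in vehicle libraries against at least 384 of 428 with LPA. At that depth, nuclei with at least 5 members made up 25.2%, 23.5% and 20.3% of it with LPA and 18.9%, 13.1% and 13.8% with vehicle. At 1000 UMIs, which 131 of 132, 242 of 249 and 223 of 230 vehicle nuclei reached, they made up 11.9%, 13.7% and 10.2% with LPA and 10.7%, 5.37% and 11.7% with vehicle, which overlapped. In the clusters led by Slc1a2 and Grin2c and by Slc6a11 and Atp13a4 such nuclei, at 2000 UMIs, were under 1% in every library, and in the oligodendrocyte lineage the highest was 0.210%.

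With the Gfap-led cluster left out, Dnah12 and Cfap44 alone of 36 members tested were called, at 1.08 and 0.93 on the log2 scale (adjusted p = 0.0160 and 0.00916 from edgeR). Across the 13882 genes tested in this fit 1.23% were called higher. The median log2 fold-change of the members was then 0.37, with 13 at an unadjusted p under 0.05, beside 2108 of the 13882 genes. Dnah9 was at 0.29 and Drc1 at 0.31, neither called. Of the 26 calls in the class as a whole, these 2 alone were made without the cluster whose share differed between the groups.

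Within the Gfap-led cluster alone, 33 members could be tested and 5 rose, with a median of 0.32. Across the 10725 genes tested there 6.09% were called higher. Rgs22, a regulator of G protein signaling, stood at 60.1, 54.5 and 57.8 CPM with LPA and 31.2, 27.0 and 22.3 CPM with vehicle (1.21, adjusted p = 8.85e-04 from edgeR). Dnah9 stood at 137, 130 and 112 CPM and 68.6, 45.0 and 102 CPM (0.94, adjusted p = 0.00151 from edgeR). Cfap44 stood at 194, 206 and 175 CPM and 119, 104 and 151 CPM (0.73, adjusted p = 7.41e-04 from edgeR). In all 3 genes the lowest LPA library lay above the highest vehicle library, by a narrow margin for Dnah9.

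Drc1 lay at 115, 118 and 117 CPM against 49.9, 77.4 and 95.7 CPM in this cluster (0.71, adjusted p = 0.00708 from edgeR), and Wdr49 at 33.7, 54.5 and 38.8 CPM against 34.3, 16.2 and 15.6 CPM (1.15, adjusted p = 0.0155 from edgeR). Drc1 did not overlap between the groups and Wdr49 did. Of the members not called, Dnah12 lay lower with LPA, at 33.0, 36.9 and 36.7 CPM with LPA and 62.4, 50.4 and 51.2 CPM with vehicle (−0.49, adjusted p = 0.161 from edgeR), and Dnah11 was at −0.31.

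As a share of the ependymal level, the Gfap-led cluster also differed from member to member. In LPA libraries the median was 4.04%, from 0.194% (Dnah3) to 29.9% (Rsph9), and in vehicle libraries 4.14%, from 0.328% to 40.6% for the same members. Drc1 stood at 28.6% and 19.3%, Dnah7b at 19.6% and 16.9%, Ccdc39 at 14.0% and 19.8% and Cfap44 at 9.22% and 6.92%. Spag17 stood at 0.462% and 0.428%, Tmem212 at 0.459% and 0.601% and Hydin at 1.58% and 1.56%. The median of the oligodendrocyte lineage was 0.415% with LPA. Some high values were not particular to the Gfap-led cluster. With LPA, Rsph9 was also the highest member in neurons (16.4%), immune nuclei (8.13%) and the Slc1a2-led astrocytes (12.6%). Dnah7b was highest in the Slc6a11-led astrocytes (15.8%), and Ccdc39 stood at 7.86% in neurons. These values lay below those of the Gfap-led cluster. Rsph9 overlaps Mrps18a, and Ccdc39 overlaps Ttc14 and Gm43140, on the opposite strand.

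**Figure D5:**
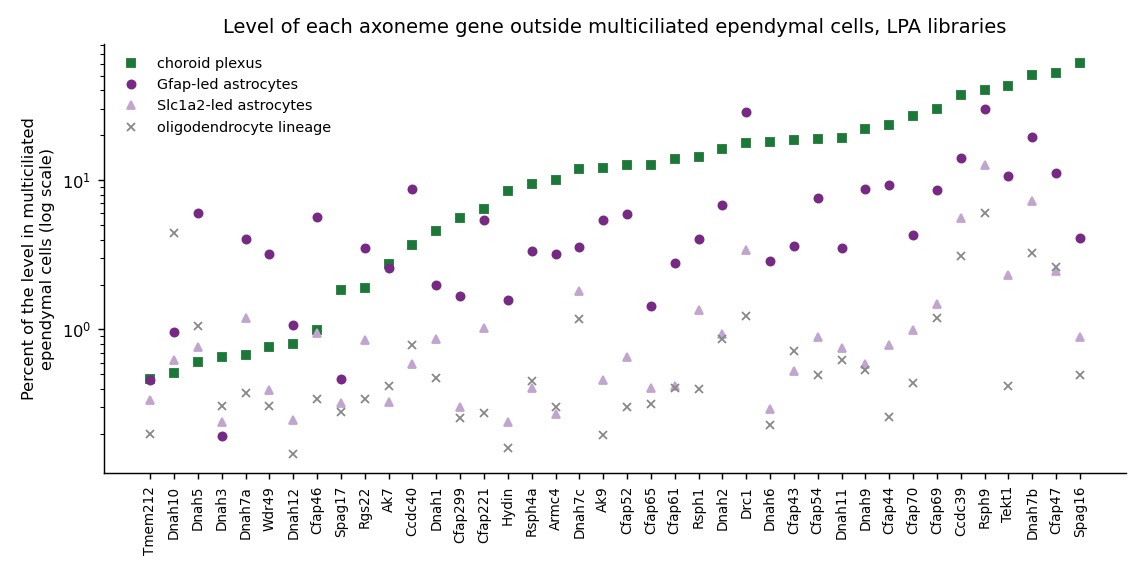
Level of each axoneme gene as a percent of its level in multiciliated ependymal cells (vertical axis, log scale), from UMIs pooled over the 3 LPA libraries, in the choroid plexus, 2 astrocyte clusters and the oligodendrocyte lineage, for the 40 members with at least 100 ependymal UMIs, in order of the choroid plexus value. The choroid plexus runs from 0.468 (Tmem212) to 60.5 (Spag16), and the Gfap-led astrocytes stand above it for Dnah5, Dnah7a and Drc1, among others, and at 4.12 for Spag16.

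Ependymal and forming-cell markers were present in these nuclei too. All 12 ependymal markers were detected in astrocytes of each library, with a summed level of 120 to 135 CPM with LPA and 80.6 to 95.1 CPM with vehicle. In the Gfap-led cluster 12 were detected in each LPA library and 10, 12 and 11 in the vehicle libraries, with sums of 254 to 295 CPM and 243 to 307 CPM, and Foxj1 and Mia were at 0 in vehicle library 1. In the oligodendrocyte lineage the sums were 59.4 to 65.4 CPM and 48.8 to 56.9 CPM. When astrocyte nuclei with any UMI of an ependymal marker were left out, a setting chosen after the data had been seen, 12 of 36 members tested were called, among them Cfap44 (1.47), Dnah9 (1.43) and Drc1 (0.86), where 3.05% of the 13771 genes tested were called higher.

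The 10 forming-cell markers summed to 103 to 170 CPM in the Gfap-led cluster with LPA and 66.6 to 97.9 CPM with vehicle. Of these, 9 or 10 were detected in each LPA library, and 6 to 8 in each vehicle library. Mcidas was at 0 in all vehicle libraries of this cluster and held 4 UMIs in each LPA library, and Ccno held 1, 2 and 0 UMIs with LPA and none with vehicle. Over all astrocytes, Deup1 held 19, 31 and 26 UMIs with LPA and 3, 0 and 2 with vehicle (log2 fold-change 3.45, standard error 0.533, adjusted p = 4.58e-04 from edgeR). The part of RNA from ependymal or forming cells in the astrocyte values was not tested beyond the settings above.

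Foxj1 in astrocytes stood at 3.81, 4.15 and 4.79 CPM with LPA and 1.71, 3.26 and 2.23 CPM with vehicle, a difference that did not pass (0.76, adjusted p = 0.136 from edgeR). Gfap stood at 264, 245 and 303 CPM and 119, 104 and 97.5 CPM (1.36, adjusted p = 6.34e-08 from edgeR). Within the Gfap-led cluster alone Gfap rose by 0.69 on the log2 scale (adjusted p = 2.57e-04 from edgeR).

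Immune nuclei, whose summed level also lay higher with LPA, were not tested. The oligodendrocyte lineage gives the level and the change in 1 class not known for motile cilia, and its makeup also differed between the groups. Its cluster led by Lhfpl3 and Megf11 held 470 of 1705, 677 of 2320 and 487 of 1944 nuclei with LPA. With vehicle it held 324 of 1894, 521 of 2758 and 352 of 2476. The clusters of this class were not tested apart. In the class as a whole 37 members passed the filter, 5 rose and none fell. There were 14 at an unadjusted p under 0.05, and the median log2 fold-change was 0.24. Across the 15232 genes tested 7.54% were called higher and 4.27% lower, so that calls were common in this class. An unadjusted p under 0.05 was found for 3913 of the 15232. Dnah5 stood at 10.9, 10.1 and 13.8 CPM with LPA and 6.08, 5.89 and 4.53 CPM with vehicle (1.06, adjusted p = 5.29e-04 from edgeR), and it was called in 6 of 6 fits that left out 1 library. Rgs22 (0.74), Cfap54 (0.60), Dnah2 (0.53) and Cfap65 (0.84) had adjusted p from 0.0298 to 0.0436 with edgeR, and each was called in 1 or 2 of the 6 fits.

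The astrocyte effect was also compared with that of the oligodendrocyte lineage on sums of whole classes, a comparison added after the data had been seen. It was higher in astrocytes for 14 of 42 members, where 3.04% of the 16423 genes tested were called in this direction. Ak9 (1.6), Dnah9 (1.48), Ak7 (1.17) and Drc1 (1.15) had the highest values among the 14. Dnah5 was not among them.

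Other cilia genes were taken as lists, beside shares over all genes of 4.92% called higher and 2.93% lower in astrocytes. In ependymal cells these shares were 1.08% and 0.782%, and 928 of 8179 genes had an unadjusted p under 0.05. Of the dynein intermediate chain, assembly and docking genes, none of 19 tested was called in ependymal cells by edgeR (1 at an unadjusted p under 0.05), and 4 of 16 rose in astrocytes, among them the assembly factor gene Dnaaf3 (1.75) and Iqub (1.02), with a list median of 0.44. Of 31 further motile axoneme genes, none of 29 was called in ependymal cells (3 at an unadjusted p under 0.05), and 7 of 27 rose and 1 fell in astrocytes, with a median of 0.24. Enkur rose (1.33), and Tekt4, a tektin, fell by 1.04 on the log2 scale.

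Genes of intraflagellar transport and the primary cilium, which build every cilium, showed 2 of 23 higher in astrocytes, Ift81 (0.35) and Cep290 (0.31), and none of 23 called in ependymal cells (5 at an unadjusted p under 0.05). Their median in astrocytes was 0.18. The 2 calls stand beside 4.92% of all genes called higher in that class and are not read as a trait of this list. Of the regulators of multiciliated cells, 4 of 13 rose in astrocytes, namely Deup1, Cdc20b (3.05), Myb (2.05) and Rfx2 (1.03), and none of 10 was called in ependymal cells (4 at an unadjusted p under 0.05). No gene of these 4 lists was called in the choroid plexus by edgeR, with 1 at an unadjusted p under 0.05 among all of them, Ift80.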

How the data were processed

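The deposited values are UMI counts per gene and barcode, which the authors made with Cell Ranger 4.0.0 and an mm10 reference that counts intronic reads. Barcodes with fewer than 300 genes or over 1% mitochondrial UMIs were dropped. Those with too many UMIs were dropped too, by an upper cutoff set per library with a factor of 1.5 on the interquartile range. Scrublet calls were marked (expected rate 0.08) and not dropped nucleus by nucleus. Clusters and sub-clusters with over 50% of nuclei called were left unnamed, so their nuclei entered no class. With the calls that remained in the classes left out, edgeR called 29 of 40 members higher in astrocytes (median log2 fold-change 0.89). In ependymal cells it then called 2 of 40 (median 0.06). Nuclei were clustered with scanpy 1.11.5 and leidenalg 0.10.2 (3000 variable genes, 40 components, 30 neighbors, resolution 1), without the axoneme genes, the markers, other cilia genes, mitochondrial genes or sex-linked genes, and named from marker lists.

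UMIs were summed per library and class and tested with edgeR 4.0.16 in R 4.3.3 (TMM, filterByExpr, quasi-likelihood, Benjamini-Hochberg adjustment over all genes tested). Differences of effect were fitted as interactions with a library block. The tests were tried on simulated counts with known changes before use. Alternatives were DESeq2 1.42.0, other filters, normalizations, clusterings and subsets of nuclei, and fits without each library. Intervals and floors cover counting error only.

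Members and lists were chosen with earlier results of these data known. Named are all 42 by role, called members (at most 10 with full values), the member of most ependymal UMIs per role, members highest in a class against ependymal cells, the Dnah7 paralogs, Foxj1, Mcidas, Deup1, Ccno and Gfap, and at most 2 genes of another list. A few further genes were named after their values were seen. One gene that the rule would name is not reported here. Replicate numbers did not pair libraries. Correlations of same-numbered libraries ran from −0.133 to 0.204.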

Additional observations from a re-analysis of the deposited data

Results flagged for a closer look

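The LPA effect was higher in astrocytes than in multiciliated ependymal cells, by the test of the difference itself, for 20 axoneme genes. The test used sums of whole classes and was not run within astrocyte clusters. The Gfap-led cluster held 24.3% to 26.7% of astrocyte nuclei with LPA and 11.8% to 12.5% with vehicle. Without it, 2 of 36 members were called in the astrocyte fit. The log2 differences were 1.38 for Cfap44, 1.44 for Dnah9, 1.35 for Ak9, 1.02 for Cfap54, 1.24 for Drc1, 1.29 for Cfap299, 1.09 for Dnah5, 1.22 for Ak7, 1.10 for Dnah6 and 0.95 for Cfap47. They were 1.00 for Wdr49, 1.49 for Cfap221, 0.70 for Rgs22, 1.3 for Cfap52, 0.75 for Cfap61, 0.70 for Dnah12, 0.53 for Cfap69, 0.90 for Cfap70, 0.79 for Hydin and 0.58 for Dnah11.

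For Ccdc39 the LPA effect was lower in the choroid plexus than in ependymal cells, with a log2 difference of −0.75. Between astrocytes and the oligodendrocyte lineage the effect differed for 14 members. With 3 libraries a group, no test for a single library far from the others was made.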

How the results depend on the processing

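Of 1296 values of named genes under alternatives, 1147 kept their side of the threshold, 130 lost the call and 15 gained one. Direction was compared only for genes called in the main fit, and 4 of their values reversed. The 4 were Dnah9 (−0.15) and Drc1 (−0.07) with the Slc6a11-led astrocytes alone and Dnah11 (−0.31) and Dnah12 (−0.49) with the Gfap-led astrocytes alone. Ependymal calls were 3 members and 152 genes. They became 5 and 258 without the mitochondrial filter, 0 and 10 in the Endog-led sub-cluster alone, 0 and 55 without the finer sub-cluster, and 1 and 45 at 2000 UMIs. Genes called were 71 with DESeq2 and 69 without nuclei holding forming-cell UMIs. Choroid plexus calls were 9 genes, and 0 with DESeq2, 23 with no filter on low counts, and 14 with a term for sex. The term for sex gave 3 members in ependymal cells and 23 in astrocytes. Astrocyte calls were 26 members and 1151 genes. They became 12 and 672 without nuclei holding any ependymal marker UMI, 2 and 317 without the Gfap-led cluster, 2 and 316 in the Slc1a2-led cluster alone and 0 and 44 in the Slc6a11-led one. The Gfap-led cluster alone gave 5 members, and DESeq2 754 genes. The 5 members called in the oligodendrocyte lineage became 1 with DESeq2, 10 with no filter, 3 with the term for sex and 3 without nuclei holding an ependymal marker UMI. The astrocyte difference from ependymal cells was called for 20 members and 230 genes by edgeR and 13 and 104 by DESeq2, and the choroid plexus one for 1 and 26 by edgeR and 0 and 1 by DESeq2. Leaving out the finer sub-cluster removes nuclei nearly all from LPA libraries and led by Dnah10 and Dnah3. The cause of the other shifts was not tested.

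A replicate block gave 5 genes in the choroid plexus and 3 members in the oligodendrocyte lineage, with 3 members in ependymal cells, 0 in the choroid plexus and 23 in astrocytes. Leaving out 1 library gave 1 to 3 members and 70 to 109 genes in ependymal cells, 2 to 11 genes in the choroid plexus, 19 to 25 members and 803 to 1135 genes in astrocytes, and 1 to 4 members and 1075 to 1788 genes in the oligodendrocyte lineage. The differences of effect gave 12 to 18 members and 136 to 185 genes for astrocytes and 0 to 1 members and 11 to 23 genes for the choroid plexus. Shares of nuclei, LPA minus vehicle, ran from 0.250 to 1.06 percentage points for ependymal cells, 0.285 to 0.352 for cells forming cilia, 4.2 to 5.73 for astrocytes, 3.14 to 3.35 for the Gfap-led cluster and −0.130 (without vehicle replicate 2) to 0.376 for the choroid plexus. The median share of nuclei with a member, at 1000 UMIs and without thinning, was 60.4% and 91.4% in ependymal cells with LPA and 61.7% and 86.1% with vehicle, 6.01% and 21.5%, and 6.23% and 17.9%, in the choroid plexus, 1.29% and 3.82%, and 0.792% and 1.82%, in astrocytes, and 0.555% and 2.26%, and 0.442% and 1.53%, in the oligodendrocyte lineage.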
